A study of Mus musculus with 18 samples.

Results

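The 9 CXC ligands Cxcl1, Cxcl2, Cxcl3, Cxcl9, Cxcl10, Cxcl13, Cxcl14, Cxcl16 and Pf4 were taken by gene symbol from a table of 13759 genes measured in metastasis-associated macrophages (MAMs), and all 9 were present in it and passed the filter on low counts. Cells of the MC38 line, a mouse colon adenocarcinoma, were injected into the spleen of female C57BL/6J mice 8 to 10 weeks old, and liver metastases (LM) were taken 20 days later. The labels give no other treatment or allele in any group. Lin- CD45+ CD11b+ cells of LM were sorted as F4/80high or F4/80low MAMs, with 3 libraries each, and bulk RNA-seq was made from poly(A) RNA with a directional kit. The study's text calls the second subset F4/80int, and the name F4/80low of the labels is used here. In a separate experiment, 4 populations of type 1 lymphocytes were sorted from the same model with 3 libraries each, namely NK cells and ILC1 from metastasis-free liver (MFL) and CD49a- and CD49a+ NK cells from LM, each from pools of 6 to 8 samples. They were made with another kit, so their levels are given only side by side. The titles of the LM CD49a+ NK libraries call them ILC1, and they were grouped by their population label. For the lymphocytes the study states 3 independent sortings. Whether MAMs were pooled is not given in the sources used here. Nothing states that the MAM replicates came from separate animals or sorts, so p-values measure only the spread between these libraries.

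CXC chemokines are small secreted proteins that direct leukocyte migration through G protein-coupled receptors of the CXCR family. CXCL1, CXCL2 and CXCL3 carry the ELR motif and attract neutrophils through CXCR2, whereas CXCL9, CXCL10 and CXCL11 are interferon-inducible ligands of CXCR3, the receptor through which NK cells and activated T cells enter inflamed tissue. CXCL13 attracts B cells through CXCR5, CXCL16 is a membrane-anchored ligand of CXCR6, PF4 (CXCL4) is best known as a platelet granule protein but is also made by macrophages, and CXCL14 is a homeostatic chemokine whose receptor is less settled.

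Total counts lay between 21278959 and 32267015 per MAM library. Values are CPM, counts scaled to a common library size by TMM, a fold change is F4/80high over F4/80low, and a gene was called where the quasi-likelihood test of edgeR gave it an adjusted p under 0.1 (Benjamini-Hochberg, over all genes). The sort was visible in Adgre1, which encodes F4/80 and rose 2.71 on the log2 scale (SE 0.17, adjusted p = 8.63e-06), with 901, 806 and 1167 CPM in F4/80high and 124, 160 and 153 CPM in F4/80low MAMs. Itgam, which encodes CD11b, had 1387 ± 283 and 1282 ± 250 CPM (SD, n = 3) and was not called. All 10 macrophage markers were higher in F4/80high MAMs (summed level 22743 to 31328 CPM against 7036 to 8846), and all 8 markers of classical monocytes were lower (473 to 594 against 2144 to 2427). Of the 8 dendritic cell markers, 7 were lower in F4/80high MAMs (55.5 to 78.8 against 639.9 to 1236 CPM in sum), among them Flt3 at 2.09 ± 0.46 against 106 ± 30.7 CPM and Ccr7 at 3.27 ± 2.37 against 211 ± 97.4 CPM. These markers moved with the same contrast as the chemokines, and their part in the results was not tested. In these bulk samples, fewer cells of a type and less RNA per cell cannot be told apart.

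Of the 9 chemokines, 7 lie on chromosome 5 of GRCm39. Pf4 (90918479 to 90922110) and Cxcl3 (90933962 to 90937459) are neighbours on the plus strand, separated by 11851 bases, followed beyond Cxcl15 by Cxcl1 (91039094 to 91040974) and Cxcl2 (91051730 to 91053797), which are 10755 bases apart. Cxcl9 (92469206 to 92475945) and Cxcl10 (92494497 to 92496748) lie on the minus strand 18551 bases apart, and Cxcl13 (96104810 to 96108927) lies alone. Cxcl14 is on chromosome 13 (56436352 to 56444603) and Cxcl16 on chromosome 11 (70344517 to 70352620), both on the minus strand. Cxcl10 lies within Art3, a gene of the opposite strand, and Cxcl16 overlaps Med11 and Zmynd15 of the opposite strand. The library kit kept strand, but the strand setting of the counting is not given in the sources used here.

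The promoter bases of 5 members are shown because Pf4 and Cxcl3 are neighbours called in opposite directions, Cxcl2 is the most abundant ELR+ ligand, and Cxcl9 and Cxcl10 are the pair of CXCR3 ligands. They are the 250 bases before the start, from RefSeq on GRCm38.p6, with matches in capitals to the 3 motifs searched, GGNNNTTCC (NF-kB core), GAAANNGAA (core of the interferon-stimulated response element, ISRE) and TATAAA (the box at which basal transcription factors assemble).
Cxcl2 (chr5:90903649-90903898, plus strand): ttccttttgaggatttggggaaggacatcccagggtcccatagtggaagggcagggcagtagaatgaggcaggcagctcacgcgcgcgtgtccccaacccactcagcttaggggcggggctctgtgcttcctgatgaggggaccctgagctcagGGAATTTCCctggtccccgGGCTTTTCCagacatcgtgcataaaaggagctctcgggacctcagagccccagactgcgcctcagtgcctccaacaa
Cxcl3 (chr5:90785851-90786100, plus strand): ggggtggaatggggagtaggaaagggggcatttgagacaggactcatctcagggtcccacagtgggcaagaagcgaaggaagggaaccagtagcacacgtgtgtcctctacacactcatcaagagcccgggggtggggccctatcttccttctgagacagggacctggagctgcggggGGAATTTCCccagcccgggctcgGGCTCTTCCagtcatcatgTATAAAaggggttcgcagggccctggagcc
Cxcl9 (chr5:92328080-92328329, minus strand): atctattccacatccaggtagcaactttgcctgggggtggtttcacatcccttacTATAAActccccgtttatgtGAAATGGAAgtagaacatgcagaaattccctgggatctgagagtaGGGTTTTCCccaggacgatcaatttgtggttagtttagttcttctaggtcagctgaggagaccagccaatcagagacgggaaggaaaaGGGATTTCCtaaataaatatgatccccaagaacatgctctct
Cxcl10 (chr5:92348890-92349139, minus strand): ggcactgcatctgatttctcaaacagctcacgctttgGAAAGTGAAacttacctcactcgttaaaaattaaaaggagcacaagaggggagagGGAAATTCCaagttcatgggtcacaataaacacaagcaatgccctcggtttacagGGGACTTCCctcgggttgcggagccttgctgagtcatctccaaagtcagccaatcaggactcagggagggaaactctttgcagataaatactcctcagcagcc
Pf4 (chr5:90772185-90772434, plus strand): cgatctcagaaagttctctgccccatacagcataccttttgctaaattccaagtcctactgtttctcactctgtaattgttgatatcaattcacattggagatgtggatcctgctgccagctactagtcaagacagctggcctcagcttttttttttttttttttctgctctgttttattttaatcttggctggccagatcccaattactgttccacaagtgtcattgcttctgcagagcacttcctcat

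Of the 9 members, 8 had a promoter window in RefSeq, from 250 bases before to 50 after the start, and Cxcl16 had none. On both strands of these windows, the NF-kB core matched in Cxcl1, Cxcl2, Cxcl3, Cxcl9 and Cxcl10, whereas 18.5% of 32851 promoters hold it. Cxcl1, Cxcl2 and Cxcl3 each hold GGAATTTCC, whose reverse complement is also a match over the same bases, and it begins 70, 96 and 72 bases before the start. The ISRE core matched in Cxcl9, Cxcl10 and Cxcl14 (8.56% of promoters) and the letters TATAAA in Cxcl3, Cxcl9 and Cxcl13 (13.6%). The TATAAA matches begin 30 bases before the start in Cxcl3, 195 in Cxcl9 and 46 in Cxcl13. None of the 3 motifs matched in the Pf4 window, which lies at the RefSeq start. By its spacing to Cxcl3, that start lies inside the Pf4 interval given above, so the bases before that interval were not searched. These matches describe the letters of the windows and not bound sites.

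The first question was which CXC ligands differ between the F4/80high and F4/80low subsets. Of the 9 members, 4 were called. Pf4, Cxcl13 and Cxcl14 were higher in F4/80high MAMs and Cxcl3 was lower, and the other 5, Cxcl1, Cxcl2, Cxcl9, Cxcl10 and Cxcl16, were not called. The subsets differed widely, since 54.9% of all genes tested were called, 27.8% as higher and 27.1% as lower in F4/80high, so 4 of 9 is not above that background. The libraries of the subsets did not overlap in 4 members, the same 4, and in 58.4% of all genes.

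**Figure D1:**
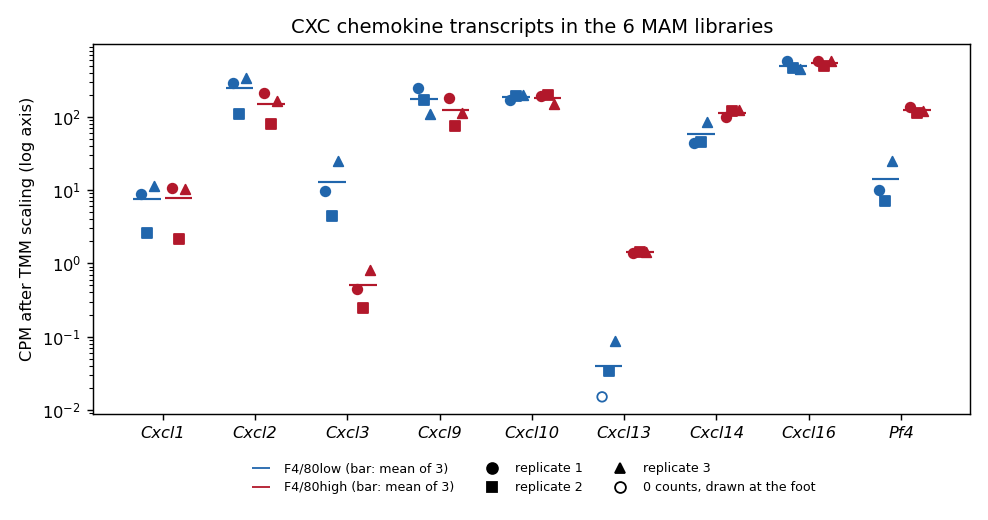
CPM after TMM scaling (log axis) of the 9 members in each of the 6 MAM libraries; symbols give the replicate number and bars the mean of 3 libraries. Pf4, Cxcl13 and Cxcl14 lie higher in each F4/80high library and Cxcl3 lower, while the other 5 members overlap.

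Pf4, Cxcl13 and Cxcl14 were higher in F4/80high MAMs. Pf4 had 138, 113 and 119 CPM in the F4/80high libraries and 9.95, 7.14 and 25.3 CPM in the F4/80low libraries. Each F4/80high library thus lay above each F4/80low library, and replicate 3 was the highest of F4/80low. Pf4 was 8.81-fold higher (log2 fold change 3.14, SE 0.41, 95% interval 2.20 to 4.08, edgeR adjusted p = 0.00043). Without F4/80low replicate 3 the log2 fold change was 3.85. Because Pf4 is also a platelet transcript, markers of platelets and megakaryocytes were read beside it. Gp1ba, Gp9, Gp6 and Gp5 were not listed in the table, and Itga2b, Treml1 and Ppbp summed to 1.70 to 2.61 CPM in F4/80high and 1.95 to 4.20 CPM in F4/80low MAMs. Of these 3, Treml1 was higher in F4/80high MAMs, Itga2b was lower and Ppbp was not called.

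Cxcl13, the B cell attractant, was scarce in both subsets. The F4/80high libraries had 31, 40 and 44 counts (1.396, 1.417 and 1.427 CPM), and the F4/80low libraries had 0, 1 and 2 counts. Against a floor of 3 counts in each F4/80low library (0.110 CPM on average), Cxcl13 was at least 12.8-fold higher in F4/80high MAMs (edgeR adjusted p = 0.000259). The 3 F4/80high libraries were nearly equal, whereas F4/80low was at or under the floor. The fitted log2 fold change of 5.10 depends on the prior count, and it was 4.50 without F4/80low replicate 1 and 6.06 without F4/80low replicate 3. None of the 4 B cell markers was called, and their sums were 3.19 to 16.5 CPM in F4/80high and 1.60 to 12.1 CPM in F4/80low MAMs.

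Cxcl14 had 100.3, 119 and 124 CPM in F4/80high MAMs and 44.4, 45.0 and 85.0 CPM in F4/80low MAMs. The subsets did not overlap, although F4/80low replicate 3 stood nearer to the F4/80high libraries than the other two. Cxcl14 was 1.97-fold higher (log2 fold change 0.98, SE 0.24, 95% interval 0.43 to 1.53, edgeR adjusted p = 0.0103). Stromal cells also make Cxcl14, and of 7 markers of stroma and endothelium 4 were higher and 2 lower in F4/80high MAMs. The higher genes were the stromal Col1a2, Col3a1, Pdgfrb and Dcn, the lower were the endothelial Pecam1 and Kdr, and Col1a1 was not called. Col1a2 had 195 ± 122 against 30.3 ± 11.6 CPM. The sums of all 7 were 271, 569 and 323 CPM in F4/80high and 188, 82.2 and 133 CPM in F4/80low MAMs. The part of stromal RNA in the Cxcl14 difference was not tested.

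The ELR+ ligands, which recruit neutrophils, were uneven. Cxcl3 was the member that was lower in F4/80high MAMs, with 0.45, 0.25 and 0.81 CPM (10, 7 and 25 counts) against 9.72, 4.44 and 24.8 CPM (296, 130 and 574 counts) in F4/80low MAMs. The lowest F4/80low library was above the highest F4/80high library, and in both subsets replicate 2 was the lowest and replicate 3 the highest. Cxcl3 was 25.1-fold lower (log2 fold change −4.65, SE 0.71, 95% interval −6.28 to −3.02, edgeR adjusted p = 0.000986). The log2 fold change was −3.78 without F4/80low replicate 3 and −5.23 without F4/80high replicate 3.

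Cxcl2 had 210.4, 79.8 and 165 CPM in F4/80high and 294, 108 and 337 CPM in F4/80low MAMs. Its mean was lower in F4/80high, at 152 ± 66.3 against 246 ± 121 CPM (SD, n = 3), but the libraries overlapped and replicate 2 was low in both subsets. The log2 fold change was −0.70 (SE 0.44, 95% interval −1.71 to 0.31) and was not called (edgeR adjusted p = 0.228). Without F4/80low replicate 2 it was −1.06 and was called (adjusted p = 0.0432). Within each replicate number, Cxcl2 was lower in the F4/80high library. With the replicate number as a block, the log2 fold change was −0.65 and was called (edgeR adjusted p = 0.00745). Whether the numbers mark a shared sort is not given.

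Cxcl1 was far scarcer, with 10.9, 2.13 and 10.2 CPM in F4/80high and 8.93, 2.56 and 11.5 CPM in F4/80low MAMs. Replicate 2 was again the lowest of both subsets, and the group means of 7.73 ± 4.86 and 7.65 ± 4.58 CPM (SD, n = 3) were alike. The log2 fold change was 0.017 (SE 0.64, edgeR adjusted p = 0.984), and its 95% interval of −1.45 to 1.48 still allowed a 2.79-fold difference upward. Its sign turned negative under limma-voom and without F4/80high replicate 1, F4/80high replicate 3 or F4/80low replicate 2.

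**Figure D2:**
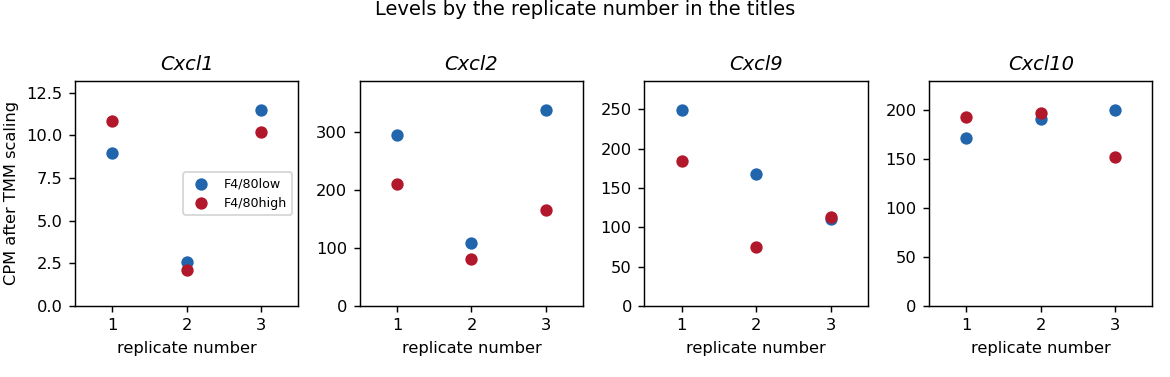
CPM of Cxcl1, Cxcl2, Cxcl9 and Cxcl10 in the F4/80high (red) and F4/80low (blue) libraries by the replicate number in the titles, on linear axes from 0. Replicate 2 is the lowest of both subsets for Cxcl1 and Cxcl2, while Cxcl10 lies between 152 and 199.6 CPM throughout.

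The ratios of the ELR+ ligands restate these levels within each library. Cxcl2 CPM divided by Cxcl3 CPM, both taken per kilobase of transcript, was 427, 294 and 186 in the F4/80high libraries and 27.7, 22.3 and 12.4 in the F4/80low libraries. The ratio of Cxcl2 to Cxcl1 was 16.7, 32.4 and 13.9 in F4/80high and 28.4, 36.5 and 25.4 in F4/80low libraries, and these overlapped. Markers of neutrophils, which also carry ELR+ chemokine transcripts, were read beside them. Ly6g and Camp were not listed, and of the 7 listed markers 6 were lower in F4/80high MAMs, with sums of 73.9 to 104 CPM against 97.7 to 185 CPM. Csf3r, which was not called, held nearly all of the F4/80high sums, at 85.7 ± 15.7 against 75.2 ± 8.67 CPM. The 6 lower markers averaged 0.015 to 0.464 CPM in F4/80high and 1.85 to 19.3 CPM in F4/80low MAMs. Ngp, at the top of the F4/80low range, had 51.4, 1.30 and 5.06 CPM there. The part of neutrophil RNA was not tested.

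The CXCR3 ligands Cxcl9 and Cxcl10 were abundant in both subsets and neither was called. Cxcl10 had 193, 197 and 152 CPM in F4/80high and 172, 191 and 199.6 CPM in F4/80low MAMs. All 6 libraries lay in that narrow range, with the subsets overlapping. The log2 fold change was −0.05 (SE 0.12, edgeR adjusted p = 0.733), and its 95% interval of −0.32 to 0.22 corresponds to a fold between 0.799 and 1.16. It was the narrowest interval of the 9 members, and its sign was positive under upper-quartile scaling and without F4/80high replicate 3.

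Cxcl9 was more variable, with 184, 74.2 and 113 CPM in F4/80high and 249, 168 and 110.3 CPM in F4/80low MAMs. Replicate 1 was the highest of both subsets and the ranges overlapped. The mean was 124 ± 55.6 against 176 ± 69.6 CPM (SD, n = 3), with a log2 fold change of −0.51 (SE 0.36, 95% interval −1.33 to 0.31, edgeR adjusted p = 0.277). Without F4/80high replicate 1 it was −0.91 and was called (adjusted p = 0.0637). With the replicate number as a block it was −0.52 and was called (edgeR adjusted p = 0.0861). The ratio of Cxcl9 to Cxcl10 per kilobase ranged from 0.143 to 0.363 in F4/80high and from 0.210 to 0.551 in F4/80low libraries. Dendritic cells, whose markers were lower in F4/80high MAMs, can also express Cxcl9 and Cxcl10, and their part in these levels was not tested. By flow cytometry, the study reports CXCL9 protein prevalently in the high subset, compared with the other subset and dendritic cells. Cxcl9 RNA was not called, and its mean was lower in F4/80high MAMs. The cause of this difference between RNA and protein was not tested.

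Cxcl11, the gene next to Cxcl10, was not a member of the list. It had 0.77, 0.60 and 0.55 CPM in F4/80high and 5.68, 4.51 and 3.81 CPM in F4/80low MAMs. It was 7.32-fold lower in F4/80high MAMs without overlap (log2 fold change −2.87, SE 0.28, edgeR adjusted p = 8.61e-05). Its level was low beside Cxcl9 and Cxcl10 in both subsets. These are transcript levels, and whether functional CXCL11 protein was made from them was not measured. Ppbp (CXCL7), the neighbour of Pf4, was near 1 CPM in both and was not called (log2 fold change −0.16, adjusted p = 0.805). Cxcl5, Cxcl12, Cxcl15 and Cxcl17 were not listed in the MAM table.

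Cxcl16, a ligand of CXCR6 that is shed by ADAM10 and ADAM17, had the highest CPM of all members. It had 574, 495 and 576 CPM in F4/80high and 585, 461 and 449.7 CPM in F4/80low MAMs. The subsets overlapped, since F4/80low replicate 1 was the highest of the 6. The log2 fold change was 0.14 (SE 0.12, 95% interval −0.15 to 0.42, edgeR adjusted p = 0.394), which corresponds to a fold between 0.903 and 1.34.

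**Figure D3:**
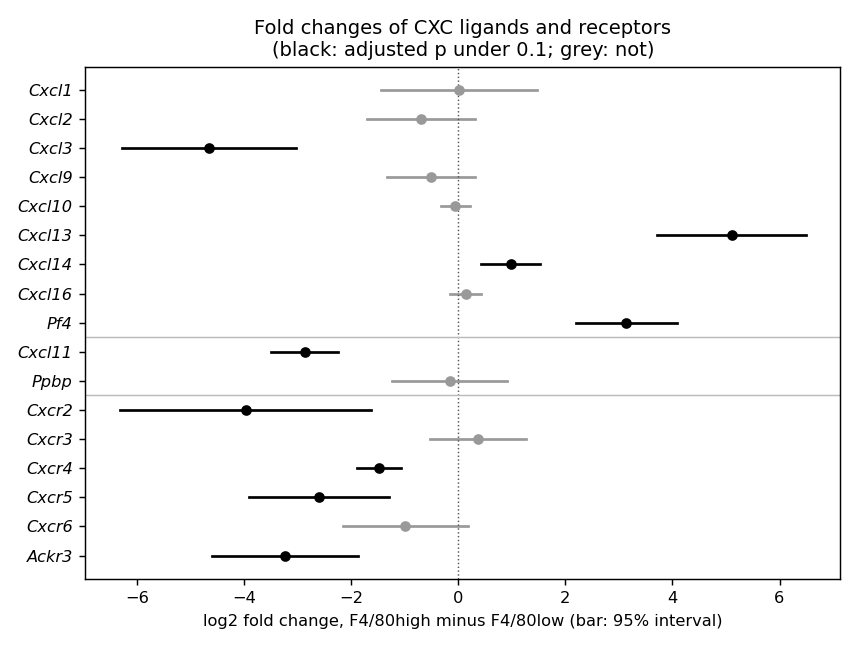
Log2 fold change between F4/80high and F4/80low MAMs with its 95% interval for the 9 members, the 2 other listed ligands and the 6 listed receptors; black marks genes called at an adjusted p under 0.1. Cxcl13 and Pf4 lie farthest to the right and Cxcl3 farthest to the left, and no receptor was called higher.

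Levels of different members were compared per length, as CPM per kilobase of the canonical transcript. In F4/80high MAMs the order was Cxcl16 at 183 ± 15.4, Cxcl10 at 164 ± 22.8, Cxcl2 at 137 ± 59.7, Pf4 at 82.5 ± 8.67, Cxcl9 at 42.7 ± 19.2, Cxcl14 at 39.2 ± 4.28, Cxcl1 at 8.06 ± 5.07, Cxcl13 at 1.23 ± 0.014 and Cxcl3 at 0.50 ± 0.28 CPM per kilobase (SD, n = 3). Cxcl16, Cxcl10, Cxcl2 and Pf4 overlapped each neighbour among themselves, Pf4 lay above Cxcl9 in all 3 libraries, and Cxcl9 and Cxcl14 overlapped. Cxcl1 lay below Cxcl14 and above Cxcl13 in all 3 libraries, and Cxcl13 above Cxcl3. In F4/80low MAMs the order was Cxcl2 at 222 ± 109, Cxcl10 at 170.2 ± 12.9, Cxcl16 at 167 ± 25.0, Cxcl9 at 60.6 ± 24.03, Cxcl14 at 19.9 ± 7.97, Cxcl3 at 12.8 ± 10.4, Pf4 at 9.46 ± 6.55, Cxcl1 at 7.98 ± 4.78 and Cxcl13 at 0.035 ± 0.038 CPM per kilobase. Here Cxcl2, Cxcl10 and Cxcl16 overlapped, Cxcl9 lay apart from Cxcl16 and from Cxcl14, Cxcl14, Cxcl3, Pf4 and Cxcl1 overlapped each neighbour, and Cxcl13 lay below all others.

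Of the summed CPM per kilobase of the 9 members, Cxcl16, Cxcl10 and Cxcl2 together held most in each library. Pf4 made up 12.2%, 13.5% and 12.2% of the sum in the F4/80high libraries and 0.897%, 0.938% and 2.24% in the F4/80low libraries. Cxcl2 made up 24.9%, 12.8% and 22.8% in F4/80high and 35.6%, 19.1% and 40.1% in F4/80low MAMs. The shares of Pf4 did not overlap between the subsets and those of Cxcl2 did.

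The receptors of these ligands were at low levels in MAMs, except Cxcr4, the receptor of CXCL12. Of 8 receptors on the list, 6 were listed in the table, 4 were lower in F4/80high MAMs, none was higher and 2 were not called, with a median log2 fold change of −2.04 against 0.014 for all genes. Cxcr4 had 105, 68.2 and 73.1 CPM in F4/80high and 253, 192 and 239 CPM in F4/80low MAMs (log2 fold change −1.48, SE 0.18, edgeR adjusted p = 0.000272). Cxcr2, the receptor of CXCL1, CXCL2 and CXCL3, had 0.32, 0 and 0.065 CPM against 3.71, 1.37 and 0.48 CPM (log2 fold change −3.97, edgeR adjusted p = 0.0128). It is itself one of the neutrophil markers already counted above. Cxcr5, the receptor of CXCL13, had 0.581 ± 0.512 against 3.4 ± 1.285 CPM (SD, n = 3, edgeR adjusted p = 0.0061). Ackr3, a scavenger of CXCL11 and CXCL12, had 0.38 ± 0.10 against 3.60 ± 2.84 CPM (edgeR adjusted p = 0.00254). Cxcr3, with 3.201 ± 1.059 and 2.45 ± 1.04 CPM, and Cxcr6, with 0.47 ± 0.17 and 0.91 ± 0.46 CPM, were not called (edgeR adjusted p = 0.465 and 0.147). Cxcr1 and Ackr1 were not listed.

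Genes of the interferon-γ response, which induces Cxcl9 and Cxcl10, were mostly lower in F4/80high MAMs. Of 23 listed genes 19 were lower, 1 was higher and 3 were not called, with a median log2 fold change of −0.67. Ciita, the master regulator of class II MHC, had 52.0 ± 17.3 against 530.1 ± 120.1 CPM (log2 fold change −3.35, SE 0.28, edgeR adjusted p = 4.4e-05). Jak2, a kinase of the IFN-γ receptor, fell by 2.71 and Cd274, which encodes PD-L1, fell by 2.14 on the log2 scale. These are RNA levels. By flow cytometry, the study reports PD-L1 protein to be higher in the high subset than in the other. The direction of Cd274 RNA was thus opposite to that of the protein, and the cause was not tested. Iigp1, an interferon-inducible GTPase, was the gene that was higher, with 74.9, 49.0 and 95.02 CPM in F4/80high against 33.8, 27.2 and 23.1 CPM in F4/80low MAMs (log2 fold change 1.38, adjusted p = 0.00178). Against a minimum fold of 1.5, 11 of the genes were called.

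Genes of the NF-kB and early inflammatory response, which include regulators of Cxcl1, Cxcl2 and Cxcl3, were likewise mostly lower. Of 23 listed genes 20 were lower and 3, Nfkbiz, Tnf and Ikbke, were not called, with a median log2 fold change of −1.17. Traf1, an adaptor of TNF receptors, had 9.16 ± 1.27 against 134 ± 27.4 CPM (log2 fold change −3.88). Il1b, which encodes interleukin-1β, had 240, 98.1 and 107 CPM in F4/80high and 1888, 946 and 1392 CPM in F4/80low MAMs (log2 fold change −3.25, SE 0.40, edgeR adjusted p = 0.000289). Ptgs2, the inducible cyclooxygenase, fell by 2.27 on the log2 scale. As with Cxcl1 and Cxcl2, replicate 2 was the lowest of both subsets for Il1b and Ptgs2.

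Of 6 genes for proteases that process chemokines, 2 were higher and 4 lower in F4/80high MAMs. Adam17 had 299 ± 26.2 against 223 ± 24.5 CPM (log2 fold change 0.43, SE 0.11, edgeR adjusted p = 0.0126) and Adam10 had 402 ± 18 against 341 ± 24.6 CPM (log2 fold change 0.24, adjusted p = 0.0561), while their substrate Cxcl16 was not called. Dpp4, which encodes a dipeptidyl peptidase that truncates CXCL10, had 2.98 ± 0.84 against 115 ± 24.6 CPM (log2 fold change −5.29). Mmp9 and Mmp8, which cleave CXC chemokines and are abundant in neutrophils, fell by 5.31 and 4.41 on the log2 scale. The lists were chosen by hand and are described only by these counts.

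**Figure D4:**
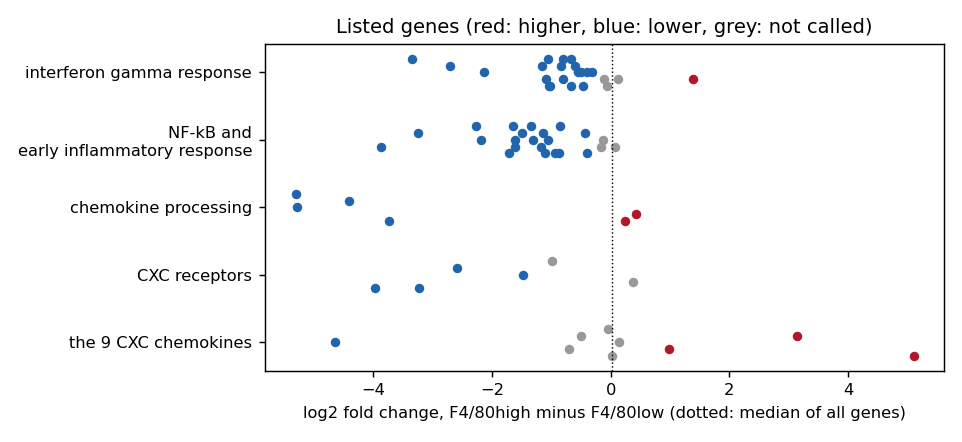
Log2 fold change between F4/80high and F4/80low MAMs of each listed gene, by list, with red for higher, blue for lower and grey for not called; the dotted line is the median of all genes, 0.014. The interferon-γ and NF-kB lists lie mostly left of the line, with 19 and 20 lower genes, and the 9 CXC chemokines spread to both sides.

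The genes whose levels were most like each member over the 6 MAM libraries were named from 10074 genes by Pearson's r of log2 CPM, as a description, since the libraries share the contrast between subsets. For Cxcl9 they were Calhm6 (r = 0.992), a gene induced by interferon in macrophages, and Eci2 (0.978), and for Cxcl10 they were Alyref2 (0.986) and Lrrc47 (0.977). For Cxcl1 they were Zfp703 (0.982) and Mapk1ip1 (0.965), for Cxcl2 Haghl (0.984) and Hyi (0.983), and for Cxcl3 Soat2 (0.997) and Zfand3 (0.994). For Pf4 they were Slc37a2 and Cenpb (both 0.999), for Cxcl14 Pi4k2a (0.995) and Cers2 (0.993), and for Cxcl16 Ivd (0.968) and Fancc (0.966). For Cxcl13 they were Smim15 and Nceh1 (r = 0.9995 and 0.9988).

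A further question was which liver lymphocytes carried the receptors and whether the ligands were also found there. Total counts of these 12 libraries lay between 8795721 and 14386834, and no test was made. Cxcr3 had 81.9, 137 and 151 CPM in MFL ILC1, 28.9, 60.5 and 20.8 CPM in LM CD49a+ NK cells, 14.2, 21.4 and 13.9 CPM in MFL NK cells and 5.44, 22.5 and 6.13 CPM in LM CD49a- NK cells. The ILC1 libraries lay above all others, whereas the 3 NK populations overlapped. Within each replicate number, however, LM CD49a+ NK cells lay above both MFL NK and LM CD49a- NK cells. Whether the numbers mark the sortings is not given. Cxcr6 was at 127, 152 and 182 CPM in MFL ILC1 and at 0 to 5.53 CPM in the NK populations. Cxcr4 was instead lowest in ILC1, with 0.57 to 2.67 CPM there and 46.9 to 722 CPM in the NK populations. Its highest values were in replicate 3 of LM CD49a- and LM CD49a+ NK cells, at 560 and 722 CPM. Replicates 1 and 2 of these populations had 92.4 to 173 CPM.

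Of the members, Cxcl1 and Cxcl14 were listed at 0 in all 12 lymphocyte libraries, where 3 counts correspond to 0.220 to 0.340 CPM. Cxcl3, Cxcl13 and Pf4 were at 0 in 11 of the 12, and Cxcl2, Cxcl9 and Cxcl16 did not exceed 5.04 CPM. Cxcl10 was the member with the highest level there, at 55.6, 24.6 and 40.7 CPM in LM CD49a+ NK cells against 2.95, 0 and 17.8 CPM in LM CD49a- NK cells, 5.71, 4.69 and 4.94 CPM in MFL NK cells and 2.99, 8.01 and 1.89 CPM in MFL ILC1. Each LM CD49a+ NK library was above every library of the other populations. The 10 macrophage markers summed to 0.669, 22.8 and 0 CPM in the LM CD49a+ NK libraries, and the part of macrophage RNA in the Cxcl10 level was not tested. LM was digested with enzymes and MFL was dissociated mechanically, so site and dissociation cannot be told apart between LM and MFL, whereas both LM populations share them.

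**Figure D5:**
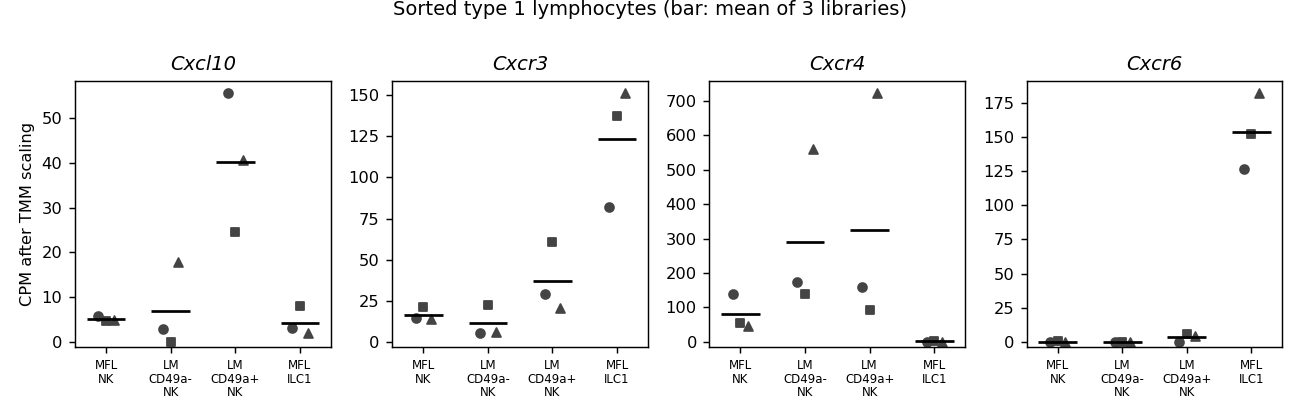
CPM of Cxcl10 and of the receptors Cxcr3, Cxcr4 and Cxcr6 in the 12 lymphocyte libraries by population, with points for libraries and bars for the mean of 3. Cxcl10 is highest in LM CD49a+ NK cells and Cxcr3 and Cxcr6 in MFL ILC1, where Cxcr4 is lowest.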

How the data were processed

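Bulk RNA-seq was analysed for 6 libraries of MAMs and, as a description, for 12 libraries of type 1 lymphocytes. The deposited values of the MAMs are estimated counts per gene, given as whole numbers without normalization. Per the submitters' processing notes, the authors used Trim Galore, Salmon 1.10.0, R 4.3.1, DESeq2 1.40.2 and GRCm39. The study describes its bulk RNA-seq methods for the lymphocytes only, so the annotation, index and summing to genes of the MAMs are not given in the sources used here. No gene sums to fewer than 37 counts over these libraries, and a rule for leaving genes out before deposit is not given either. For the lymphocytes the authors trimmed reads, ran Salmon with GENCODE transcripts, and summed the estimated counts to genes with tximport. Both tables were normalized separately.

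Names and positions came from GENCODE vM39, which contained 13726 of 13759 MAM IDs. MAM libraries were scaled by TMM and tested with edgeR 4.0.16 (quasi-likelihood, no covariate) in R 4.3.3, on genes kept by filterByExpr, which kept all 13759. The Benjamini-Hochberg adjustment ran over all genes, with calls at an adjusted p under 0.1. SE is the log2 fold change divided by the square root of F and is approximate. The 95% interval used the moderated degrees of freedom. Log2 CPM used a prior count of 2, and a floor of 3 counts stood for a group at or under it. Floors cover counting error only. Alternatives used limma 3.58.1 and DESeq2 1.42.0, and plots used Python 3.11.15 and matplotlib 3.10.9. The fit was also run on simulated data with 200 changed genes. These are far fewer than the 7555 genes called here, so the simulation does not cover so wide a contrast.

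The members and gene lists were chosen with earlier results of these data known. Genes named were the members, the listed CXC ligands and receptors, Adgre1 and Itgam, the 2 most correlated genes per member among genes averaging 5 CPM or more, and, for every further pathway list, up to 3 called genes each way, ranked by absolute change, if they averaged 5 CPM or more and the subsets did not overlap. Marker genes named otherwise were chosen after their values were seen. Lists of Kupffer cell, T and NK cell, tumor epithelium and hepatocyte markers were also read. With 3 libraries against 3, an exact two-sided permutation test cannot go below 0.1, so none was used. Protein sequences were not analysed here, and some items of the lists and motifs are not reported here.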

Additional observations from a re-analysis of the deposited data

Results flagged for a closer look

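Cxcl10 in LM CD49a+ NK cells was noted because it appeared in libraries outside the comparison of MAMs and lay above the level in MFL NK cells. The study already lists Cxcl10 in its signature of genes unique to CD49a+ NK cells, taken from its bulk RNA-seq. LM CD49a+ NK cells averaged 40.3 CPM with an SD of 15.5 over 3 libraries and MFL NK cells 5.11 CPM with an SD of 0.53, and the difference was not tested. LM CD49a- NK cells, from the same site, averaged 6.93 CPM (SD 9.57), and MFL ILC1 averaged 4.297 CPM (SD 3.26). The Cxcl10 libraries of LM CD49a+ NK cells were 55.6, 24.6 and 40.7 CPM, and the sums of the macrophage markers in them were 0.669, 22.8 and 0 CPM.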

How the results depend on the processing

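Cxcl3, Cxcl13, Cxcl14 and Pf4 kept their direction and call under every alternative run in which they were tested, including RLE and upper-quartile scaling, DESeq2, limma-voom and an adjusted p under 0.05. Leaving out all low-count filters changed nothing, since the filter removed no gene. Requiring a mean of at least 5 CPM left Cxcl13 untested, with 3 members and 5770 genes called. Against a minimum fold of 1.5, 3247 genes were called in place of 7555, with the same 4 members. Leaving out 1 library in turn gave 4 to 5 members and 6550 to 7234 genes. The log2 fold change of Cxcl10 was 0.037 with upper-quartile scaling, and −0.12 to 0.051 with 1 library left out, positive without F4/80high replicate 3. That of Cxcl1 was −0.035 with limma-voom, and −0.40 to 0.47 with 1 library left out, negative without F4/80high replicate 1, F4/80high replicate 3 or F4/80low replicate 2, and the cause was not tested. Upper-quartile scaling moved the median of all genes to 0.104 and the share of calls that were higher from 50.6% to 59.9%. Whether replicate numbers pair the subsets is not given. Over all genes, deviations of same-numbered libraries correlated at 0.172, −0.0145 and 0.0272, and not every library correlated best with its own number. These values, over 3 pairs and all genes, cannot exclude pairing. For Cxcl1 and Cxcl2, same-numbered libraries deviated in the same direction in both subsets. With the replicate number as a block, the log2 fold change of Cxcl1 was −0.035, and 6 members and 7512 genes were called, adding Cxcl2 (−0.65, edgeR adjusted p = 0.00745) and Cxcl9 (−0.52, adjusted p = 0.0861). Depth limits Cxcl13 and Cxcl3, which had at most 44 and 25 counts in an F4/80high library.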

Other observations

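Markers of other cells in the sorted MAMs that the chemokine results do not use were as follows. Of 7 Kupffer cell markers, 5 were higher and 1, Timd4, was lower in F4/80high MAMs, with sums of 13.2 to 25.8 CPM against 12.6 to 16.6 CPM. Of 6 listed T and NK cell markers, 3 were lower and none was higher, with sums of 3.08 to 8.06 CPM in F4/80high and 4.37 to 26.9 CPM in F4/80low MAMs. The epithelial genes Cdh1 and Epcam, which are also expressed by some dendritic cells and macrophages, were both lower, with sums of 8.30 to 11.8 CPM against 197 to 281 CPM, and Krt8, Krt18, Krt19 and Cldn4 were not listed. None of the 3 listed hepatocyte markers was called, with sums of 1.65 to 9.81 CPM and 1.82 to 4.88 CPM.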
